A study of Mus musculus with 12 samples.

Results

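The Hox genes described here are the 39 genes of the Hoxa, Hoxb, Hoxc and Hoxd clusters, taken as every row of the 2 deposited expression tables whose symbol is Hox, a cluster letter and a number. They are 39 of the 25094 genes that each table lists, with 11 in Hoxa, 10 in Hoxb, 9 in Hoxc and 9 in Hoxd. All 39 appear in both tables. Their levels were measured in the gastrocnemius of the calf, 2 weeks after the sciatic nerve of the right leg had been cut.

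Hox genes encode transcription factors that bind DNA through a homeodomain. Genes with the same number in different clusters are paralogues, and a low number goes with the head end of the embryo and a high number with the tail end. In the limb the higher numbers are known for patterning along its length, and several Hoxc genes, Hoxc10 among them, are known for expression in the hindlimb and not the forelimb. Adult limb tissues keep part of this code as a record of their position. Hox proteins often bind DNA together with TALE cofactors (Pbx, Meis and Pknox), while Polycomb complexes hold Hox genes silent and Trithorax complexes keep them active.

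The mice were male and wild type, from the C57BL/6 and BALB/c inbred strains. The right sciatic nerve was cut and its ends were turned back and sutured to muscle, the right leg is labelled as atrophied, and the left leg is labelled healthy. A sham operation is mentioned in the protocol, but the labels leave unsaid if any left leg received it. Left and right legs of each strain form 4 groups of 3 libraries, 12 in all. The labels give no age. They also do not tie each library to its own mouse, so a p-value here reflects the spread among libraries and that spread may be technical.

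Expression was deposited as RPKM, which divides a gene's reads by transcript length and library depth. Depth came to between 18132618 and 19282886 reads. The 8 muscle fibre markers summed to 60200 to 176000 RPKM, so the labelled tissue was present. Tbx4, a transcription factor of hindlimb identity, had group means of 0.784 to 2.62 RPKM, whereas its forelimb counterpart Tbx5 stayed at or under 0.079 RPKM in every library. BALB/c right library 2 stood apart from the other libraries with an RPKM sum of 598694.5, against 426429.1 to 510634.9 in the others, and BALB/c left library 2 had the lowest sum. Both enter every value below, and Hox calls within a strain that turn on leaving 1 of them out are named with the gene.

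The part of the coding sequence that makes these genes a family is printed here for members on which the results turn. Each line is a stretch of 60 bases around the codons of the DNA-contacting helix of the homeodomain, read 5′ to 3′ from the GENCODE M21 transcript of the gene, with the 18 bases of the shared core in capitals.
Hoxc10: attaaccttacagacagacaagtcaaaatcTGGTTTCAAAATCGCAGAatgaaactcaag
Hoxd10: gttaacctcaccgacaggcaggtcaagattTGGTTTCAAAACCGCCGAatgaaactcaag
Hoxa10: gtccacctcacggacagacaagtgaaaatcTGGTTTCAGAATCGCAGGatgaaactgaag
Hoxc9: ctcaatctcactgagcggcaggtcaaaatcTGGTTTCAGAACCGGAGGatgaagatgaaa
Hoxc11: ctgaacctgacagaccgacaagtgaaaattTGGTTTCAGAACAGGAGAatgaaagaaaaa
Hoxd8: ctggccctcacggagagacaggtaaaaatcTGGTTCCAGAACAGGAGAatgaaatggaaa
In this stretch Hoxc10 and Hoxd10 shared 51 of 60 bases. Over all 42 pairs with the same paralogue number the median was 51 identical bases (range 44 to 58), against 44 (range 35 to 57) for the 172 pairs within a cluster and 44 (range 33 to 57) for the other 527 pairs. Over whole transcripts, the longest run identical between any 2 of the 39 members was 52 bases, between Hoxa6 and Hoxb4, and 2 of 741 pairs shared a run of at least 50 bases. The other pair was Hoxb9 and Hoxc9, whose run of 50 bases was made up of very few kinds of base. Reads that lie wholly in such a run cannot be assigned to a gene from their sequence.

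The muscle held Hox transcripts at unequal levels, with the highest at paralogue 10 of the Hoxc cluster. Summed RPKM of the 39 genes averaged 149 (range 134.6 to 159.3) in left and 162 (153.3 to 174.1) in right legs of C57BL/6, and 130.1 (118.3 to 140.0) in left and 194 (163.0 to 226.2) in right legs of BALB/c. Hoxc10 alone made up 37.4% to 45.7% of that sum in the 12 libraries. Paralogues 9 to 11 of all clusters together made up 66.7% to 78.2%. RPKM is a value per length, so levels of different genes are compared on it directly.

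**Figure D1:**
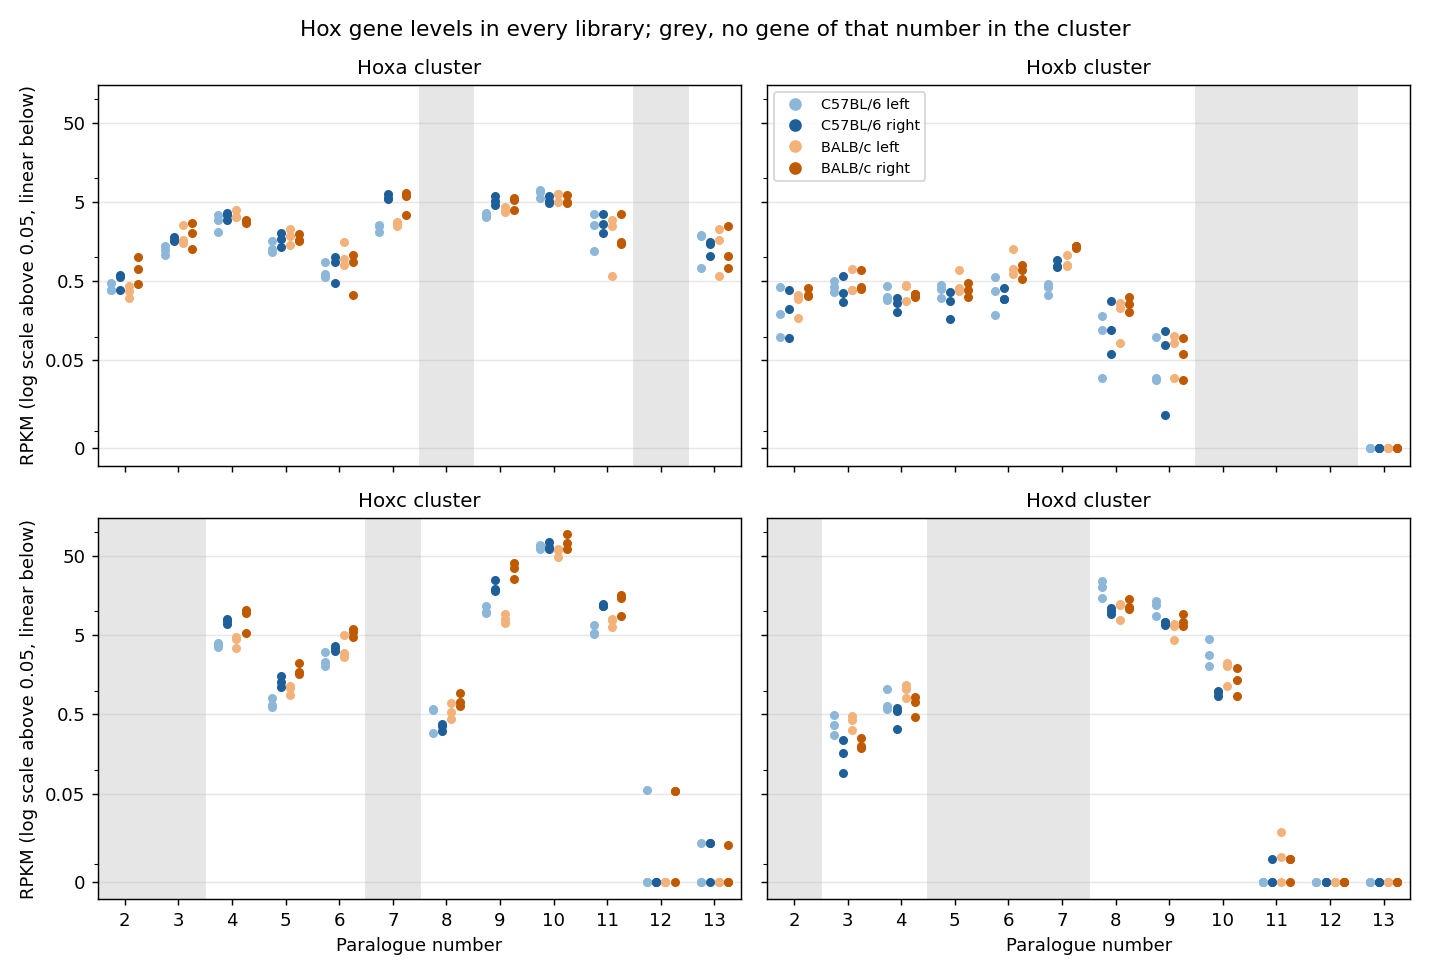
RPKM of the Hox genes (vertical axis, logarithmic above 0.05 and linear below) by paralogue number, from 2 to 13, 1 panel per cluster and 1 point per library, with the 4 groups in colour and grey bands where a cluster has no gene of that number. Hoxc10 lies highest at 48.2 to 95.4 RPKM, Hoxb genes lie at or under 1.39 RPKM, and paralogues 12 and 13 lie near 0 apart from Hoxa13.

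The clusters contributed unequally. In left legs of C57BL/6 the cluster sums were 89.0 ± 4.92 RPKM for Hoxc, 35.3 ± 8.59 for Hoxd, 22.7 ± 0.889 for Hoxa and 2.35 ± 0.315 for Hoxb (SD, n = 3). In left legs of BALB/c they were 81.7 ± 6.70 for Hoxc, 24.8 ± 0.930 for Hoxa, 20.0 ± 4.41 for Hoxd and 3.67 ± 0.782 for Hoxb. Hoxc was the highest and Hoxb the lowest cluster in all 12 libraries. Hoxa and Hoxd changed places between groups: Hoxd lay above Hoxa in every left library of C57BL/6, and Hoxa lay above Hoxd in every library of the other groups. The 2 tables were normalized separately, so levels were not tested between strains.

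By mean over the 12 libraries, Hoxc10 led with 66.4 RPKM, followed by Hoxc9 with 18.3, Hoxd8 with 13.2, Hoxc11 with 9.61 and Hoxd9 with 8.06. Hoxc4 (5.99), Hoxa10 (5.72), Hoxa9 (4.37), Hoxa7 (4.05) and Hoxc6 (3.72 RPKM) completed the highest 10. The step from Hoxc10 to Hoxc9 held without overlap within 4 of 4 groups. The step from Hoxc9 to Hoxd8 separated the libraries in 3 of 4 groups, but Hoxd8 was above Hoxc9 in every left library and below it in every right library. From Hoxd8 down to Hoxc6, neighbours in this order were apart in only 1 to 3 of the 4 groups.

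Several members were at or near 0. Hoxb13, Hoxd1, Hoxd12 and Hoxd13 had 0 reads in all 12 libraries, which at the limit of 3 reads allows up to 0.121 RPKM of Hoxb13 and 0.089 of Hoxd1 in a library. In all, 8 members had at most 3 reads in every library, and 27 had more than 3 reads in every library. Hoxa13 was the exception among paralogues 12 and 13. It encodes a factor of the hand and foot plate, and its group means here were 1.36 to 1.50 RPKM. Hoxd11, a factor of the middle limb segment together with Hoxa11, had 6 reads over all libraries, and Hoxa11 had 1207.

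Right against left legs were then compared in each strain, to find which Hox genes differed between the denervated and the other leg. Every cut nerve was on the right. Denervation, body side and any effect of the operation on the left leg therefore cannot be told apart. The test used log2(RPKM + 0.5), a scale on which changes of low genes come out too small, and took genes whose mean in a strain reached 0.1 RPKM. In each strain 29 members passed that filter and 10 did not. Most of the transcriptome moved upward on this scale: right legs exceeded left legs by 0.52 at the median tested gene of C57BL/6 and by 0.38 at that of BALB/c. Because of that shift, each called change of a Hox gene is also given after rescaling the libraries by median-of-ratios factors, which brought the median of all tested genes to 0.01 in both strains.

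In C57BL/6, 9 of 29 tested Hox genes rose and 4 fell at an adjusted p under 0.05 (limma), and the 4 that fell were all Hoxd genes. The rises made up 31.0% of the tested Hox genes, beside 63.6% of all 14551 tested genes, and the falls 13.8% beside 8.56%. The median Hox gene changed by 0.08, against 0.52 for all tested genes. After median-of-ratios scaling 3 rose and 11 fell, with 28.2% of all tested genes higher and 26.6% lower, and the median Hox change was -0.34. Libraries of the legs did not overlap for 9 higher and 4 lower Hox genes, as for 66.2% and 9.57% of all tested genes.

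In BALB/c, 6 of 29 rose (20.7%) and 0 fell, against 42.5% higher and 7.67% lower among 14819 tested genes. Of those 6, all rose in C57BL/6 too: Hoxa7, Hoxb7, Hoxc4, Hoxc5, Hoxc9 and Hoxc11. The median Hox gene changed by 0.16, against 0.38 for all tested genes. After median-of-ratios scaling 1 rose and 7 fell, with 21.8% and 19.2% of all tested genes higher and lower, and the median Hox change was -0.24. Libraries did not overlap for 7 higher and 2 lower Hox genes, against 48.1% and 10.4% of all tested genes. The count of rises depended on single libraries: it dropped to 3 when BALB/c left library 1 was left out and to 2 when left library 3, right library 1 or right library 3 was, and it was 8 without right library 2. Hoxc9 was called each time.

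**Figure D2:**
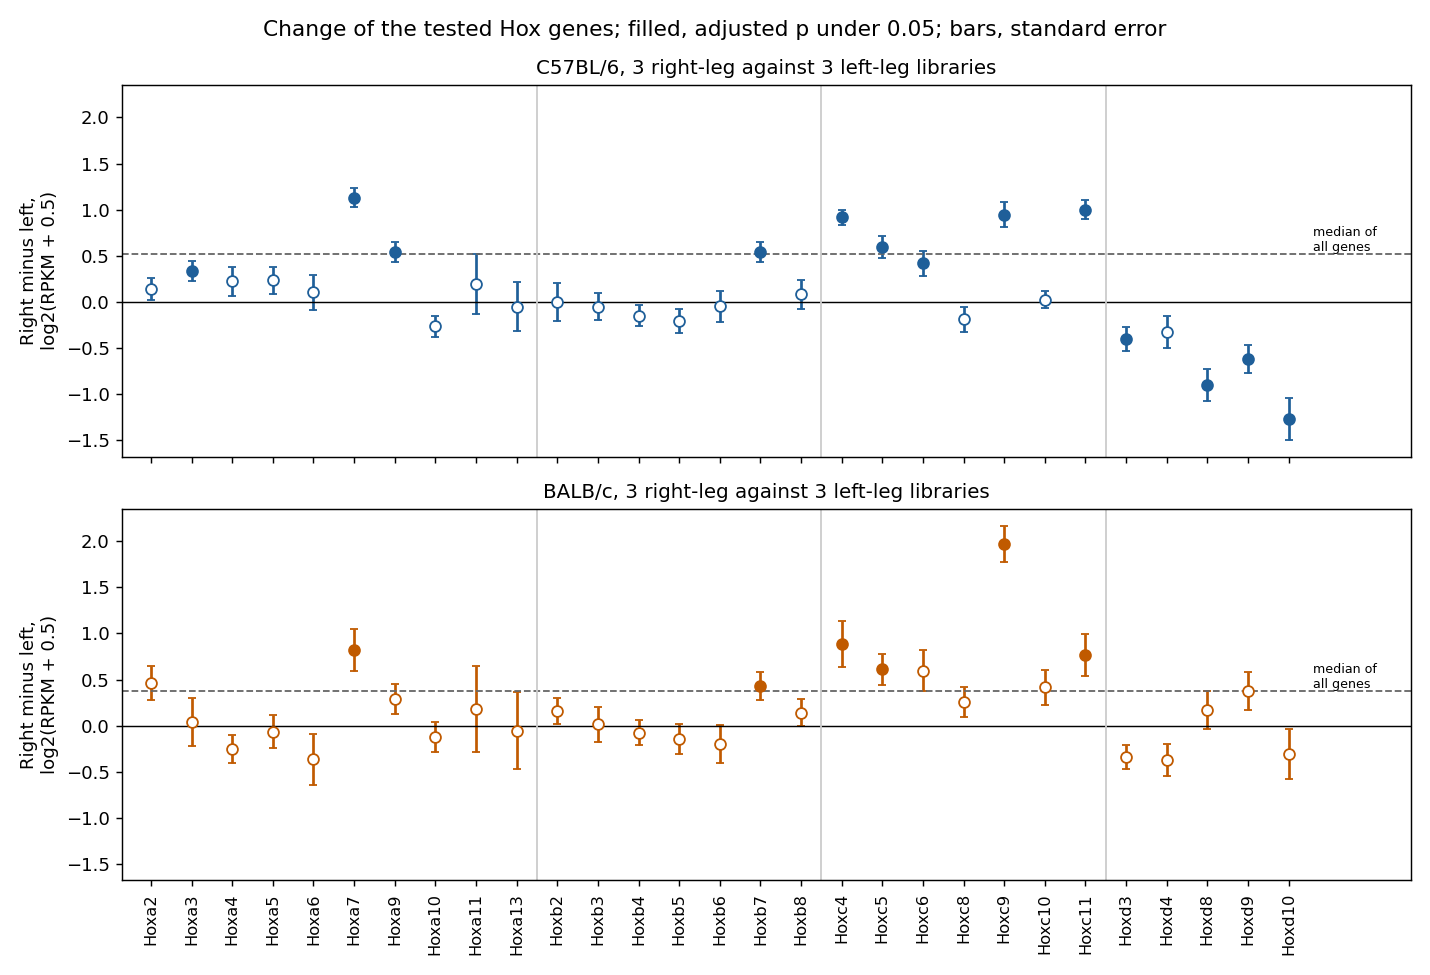
Right minus left difference of log2(RPKM + 0.5) for the 29 tested Hox genes in C57BL/6 (top) and BALB/c (bottom), ordered by cluster and paralogue number, with the standard error as bars, filled points at an adjusted p under 0.05 and a dashed line at the median of all tested genes. Hoxc4, Hoxc9, Hoxc11 and Hoxa7 lie above the dashed line in both strains and Hoxd genes lie below 0 in C57BL/6. With median-of-ratios scaling 10 of the 29 genes turn from above to below 0 in each strain, which leaves 6 above 0 in C57BL/6 and 8 in BALB/c.

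Hoxc9, a factor of thoracic identity in the spinal cord and trunk, rose most among the Hox genes of BALB/c (NM_008272, mm9 chromosome 15, 102807463 to 102814875, plus strand). In C57BL/6 it measured 9.90, 9.62 and 11.7 RPKM in left libraries 1 to 3 and 24.8, 17.9 and 18.9 RPKM in the right. In BALB/c it measured 8.06, 7.14 and 9.39 RPKM in the left and 25.3, 35.8 and 41.1 RPKM in the right. Every right library was above every left library in both strains. The log2 change was 0.94 ± 0.14 (SE, adjusted p = 0.000516) in C57BL/6 and 1.97 ± 0.20 (adjusted p = 0.000165) in BALB/c. After median-of-ratios scaling it was 0.25 (adjusted p = 0.176) and 1.46 (adjusted p = 0.00189), so the call in C57BL/6 depended on the scaling.

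Hoxc10, the neighbour of Hoxc9, was the highest Hox gene (NM_010462, chromosome 15, 102797227 to 102802328). With all libraries, no rescaling and no block for the replicate number, it was not called in either strain. It measured 67.9, 61.5 and 66.8 RPKM in left and 74.1, 60.8 and 64.8 in right libraries of C57BL/6. In BALB/c it measured 60.2, 48.2 and 62.0 RPKM in left and 74.0, 61.0 and 95.4 in right libraries. The legs overlapped in both strains. Its log2 change was 0.02 ± 0.09 (adjusted p = 0.838) and 0.42 ± 0.19 (adjusted p = 0.103), and with median-of-ratios scaling it turned to -0.69 (adjusted p = 0.00069) in C57BL/6 and -0.11 (adjusted p = 0.698) in BALB/c. It was called higher in BALB/c without right library 2 (0.57, adjusted p = 0.0312) and with the replicate number as a block (adjusted p = 0.0471).

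A ratio of 2 genes within a library does not depend on how libraries are scaled. Hoxc9 was 0.146 to 0.175 times Hoxc10 in the left libraries of C57BL/6 and 0.292 to 0.335 times in the right. In BALB/c the ratio was 0.134 to 0.151 in the left and 0.342 to 0.587 in the right libraries. Left and right did not overlap in either strain. These ratios show unequal change of the 2 genes, not which of them moved.

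Hoxc11, a hindlimb factor at the far side of Hoxc10, rose in both strains (NM_001024842, chromosome 15, 102784957 to 102787132). It measured 6.76, 5.38 and 5.24 RPKM in left and 11.8, 11.8 and 12.3 in right libraries of C57BL/6. In BALB/c it measured 6.37, 8.10 and 7.67 RPKM in left and 14.8, 8.82 and 16.3 in right libraries, with right library 2 close to the left legs. The log2 change was 1.00 ± 0.10 (adjusted p = 9.4e-05) and 0.77 ± 0.23 (adjusted p = 0.0242), and 0.32 (adjusted p = 0.0377) and 0.27 (adjusted p = 0.271) after median-of-ratios scaling. The BALB/c call of Hoxc11 was lost without left library 1 or 3 or right library 1 or 3. Scaling to a common sum also removed it.

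Hoxc4, Hoxc5 and Hoxc6 lie at the other end of the cluster and are known from the neck and upper trunk. Hoxc4 (NM_013553, chromosome 15, 102864826 to 102867283) measured 3.94, 3.80 and 3.57 RPKM in left and 7.01, 8.01 and 7.66 in right libraries of C57BL/6. BALB/c libraries gave 3.46, 4.71 and 4.43 RPKM in left and 10.5, 5.35 and 9.46 in right libraries. Right lay above left in both strains, with a log2 change of 0.92 ± 0.08 (adjusted p = 5.1e-05) and 0.88 ± 0.25 (adjusted p = 0.019). It kept its call after median-of-ratios scaling in C57BL/6 (0.26, adjusted p = 0.0318) but not in BALB/c (0.40, adjusted p = 0.141). The BALB/c call of Hoxc4 was also lost with scaling to a common sum, and without left library 1, right library 1 or right library 3.

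Hoxc5 (NM_175730) was lower in level, at 0.619, 0.665 and 0.799 RPKM in left and 1.11, 1.55 and 1.27 in right libraries of C57BL/6. The BALB/c values were 0.885, 1.15 and 1.07 RPKM in left and 1.64, 2.21 and 1.69 in right libraries. Its log2 change was 0.60 ± 0.12 (adjusted p = 0.00316) and 0.61 ± 0.17 (adjusted p = 0.0161), with 0.13 (adjusted p = 0.4) and 0.23 (adjusted p = 0.291) after median-of-ratios scaling. The BALB/c call of Hoxc5 was also lost with scaling to a common sum, and without left library 1 or 3. Hoxc6 (NM_010465) rose in C57BL/6, from 2.32, 2.02 and 3.04 to 3.46, 3.18 and 3.61 RPKM, by 0.42 ± 0.14 (adjusted p = 0.0257), and median-of-ratios scaling turned that to -0.20 (adjusted p = 0.282). In BALB/c Hoxc6 measured 2.66, 4.97 and 2.98 RPKM in left and 6.06, 4.79 and 5.49 in right libraries, where left library 2 overlapped the right legs. Its change there was 0.60, which was not called with all libraries, but was without left library 2 and with a filter of 1 RPKM. Its call in C57BL/6 was lost without left library 1, left library 2, right library 1 or right library 3. The difference between strains was not called for Hoxc6 (0.18 ± 0.28, adjusted p = 0.722).

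In the Hoxa cluster, Hoxa7 stood out (NM_010455, chromosome 6, 52165623 to 52168572, minus strand). This trunk-patterning gene measured 2.11, 2.49 and 2.59 RPKM in left and 6.37, 5.68 and 5.46 in right libraries of C57BL/6. Its BALB/c levels were 2.79, 2.72 and 2.52 RPKM in left and 6.49, 3.43 and 5.91 in right libraries. The legs did not overlap in either strain. The log2 change was 1.13 ± 0.10 (adjusted p = 4.8e-05) and 0.82 ± 0.23 (adjusted p = 0.0172), and after median-of-ratios scaling 0.50 (adjusted p = 0.00513) and 0.36 (adjusted p = 0.17). The BALB/c call of Hoxa7 was also lost with scaling to a common sum, and without left library 3, right library 1 or right library 3.

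Its neighbours moved less. Hoxa9 (NM_010456), which acts in trunk, limb and blood stem cells, measured 3.33, 3.57 and 3.24 RPKM in left and 5.11, 5.86 and 4.52 in right libraries of C57BL/6, a rise of 0.54 ± 0.11 (adjusted p = 0.00252) that median-of-ratios scaling turned to -0.10 (adjusted p = 0.396). In BALB/c its level was 3.81, 4.26 and 3.75 RPKM in left and 5.28, 3.99 and 5.64 in right libraries, which overlapped. Without right library 2, Hoxa9 and Hoxa2 were called higher in BALB/c. Hoxa3 (NM_010452), a gene of the neck and thymus, rose in C57BL/6 from 1.23, 1.07 and 1.40 to 1.59, 1.83 and 1.64 RPKM, by 0.34 ± 0.11 (adjusted p = 0.0235), and stood at -0.20 (adjusted p = 0.159) with median-of-ratios scaling. The call for Hoxa3 was lost without C57BL/6 left library 1, left library 2, right library 2 or right library 3.

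Hoxa10 (NM_001122950), a gene of the thigh segment and the uterus, measured 7.16, 5.59 and 6.65 RPKM in left and 4.85, 5.89 and 5.10 in right libraries of C57BL/6. BALB/c libraries gave 6.22, 4.93 and 6.33 RPKM in left and 5.02, 4.86 and 6.04 in right libraries. It was not called in either strain, and after median-of-ratios scaling it was called lower in both (-0.93, adjusted p = 0.000298, and -0.61, adjusted p = 0.0244). Hoxa4 was not called in C57BL/6 (0.22, adjusted p = 0.235) or BALB/c (-0.26, adjusted p = 0.19). In BALB/c its right libraries all lay below the left, and median-of-ratios scaling called it lower there (-0.71, adjusted p = 0.0041). Hoxa11 and Hoxa13 varied more between libraries of a group than between legs. Hoxa11 measured 3.53, 2.57 and 1.19 RPKM in left libraries of C57BL/6 and 2.50, 0.580 and 2.97 in those of BALB/c, and Hoxa13 was lowest in the same libraries, at 0.723 RPKM in C57BL/6 left library 3 and 0.577 RPKM in BALB/c left library 2.

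Hoxb genes were low, with 1 of 7 tested members called in each strain before rescaling. That member was Hoxb7 (NM_010460, chromosome 11, 96147960 to 96151477, plus strand), a trunk gene. It measured 0.458, 0.422 and 0.336 RPKM in left and 0.786, 0.916 and 0.749 in right libraries of C57BL/6, and 1.08, 0.785 and 0.808 in left and 1.32, 1.37 and 1.39 in right libraries of BALB/c. The log2 change was 0.54 ± 0.11 (adjusted p = 0.0024) and 0.43 ± 0.15 (adjusted p = 0.0466), and 0.16 (adjusted p = 0.247) and 0.06 (adjusted p = 0.782) after median-of-ratios scaling. In BALB/c its call was lost when any of 5 libraries was left out: left library 2 or 3, or right library 1, 2 or 3. After median-of-ratios scaling no Hoxb gene was called higher in either strain. Hoxb3, Hoxb4 and Hoxb5 were then called lower in C57BL/6 (-0.38, -0.42 and -0.49, adjusted p = 0.048, 0.0179 and 0.012). Hoxb6 was called lower in BALB/c (-0.51, adjusted p = 0.0496).

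In the Hoxd cluster, 4 of 5 tested genes went the other way in C57BL/6. Hoxd8 (NM_001290731, chromosome 2, 74542672 to 74545989, plus strand), a trunk and limb gene and the third highest Hox gene, measured 20.3, 14.7 and 24.1 RPKM in left and 11.05, 9.17 and 10.04 in right libraries. Hoxd9 (NM_013555, 74535820 to 74538265), a gene of the thigh segment, measured 11.97, 8.78 and 13.4 RPKM in left and 7.37, 6.66 and 7.36 in right libraries. Hoxd10 (NM_013554, 74529948 to 74533163), known from hindlimb and lumbar motor neurons, measured 2.83, 2.02 and 4.46 RPKM in left and 0.964, 0.856 and 0.998 in right libraries. All 3 genes were lower in every right than in any left library, and left library 2 was the lowest of the left legs for each.

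The log2 changes in C57BL/6 were -0.91 ± 0.17 for Hoxd8 (adjusted p = 0.00215), -0.62 ± 0.15 for Hoxd9 (adjusted p = 0.00656) and -1.27 ± 0.23 for Hoxd10 (adjusted p = 0.0016). With median-of-ratios scaling they were larger, at -1.60, -1.30 and -1.80. Hoxd3 (NM_010468), the fourth that fell, was low, at 0.364, 0.276 and 0.495 RPKM in left and 0.090, 0.236 and 0.163 in right libraries, with a change of -0.40 ± 0.14 (adjusted p = 0.0289) and -0.65 (adjusted p = 0.00501) after median-of-ratios scaling. Its call was lost without left library 1, left library 3, right library 1 or right library 3. Hoxd4 averaged 0.756 RPKM in left and 0.494 in right libraries, which overlapped. It was not called (-0.33, adjusted p = 0.124), but median-of-ratios scaling called it lower (-0.72, adjusted p = 0.00934).

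In BALB/c none of the 3 genes was called lower. Hoxd8 measured 12.2, 7.78 and 12.4 RPKM in left and 14.2, 11.3 and 10.6 in right libraries. Hoxd9 measured 6.62, 4.34 and 6.85 RPKM in left and 9.36, 6.61 and 7.40 in right libraries, and Hoxd10 2.23, 1.14 and 2.07 in left and 1.92, 0.853 and 1.35 in right libraries. The legs overlapped for all 3 genes. The log2 changes were 0.17 ± 0.21 for Hoxd8 (adjusted p = 0.519), 0.38 ± 0.21 for Hoxd9 (adjusted p = 0.169) and -0.31 ± 0.27 for Hoxd10 (adjusted p = 0.383), and with median-of-ratios scaling -0.33, -0.11 and -0.71 (adjusted p = 0.296, 0.708 and 0.0754). Left library 2 of BALB/c, 1 of the libraries that stand apart, was the lowest of its group for each gene, and without it the change of Hoxd8 was -0.04. Hoxd3 measured 0.473, 0.419 and 0.316 RPKM in left and 0.251, 0.188 and 0.197 in right libraries, without overlap. It was not called there, but was called lower with median-of-ratios scaling (-0.54, adjusted p = 0.0146) and with no filter on low values. Hoxd4 averaged 1.01 RPKM in left and 0.672 in right libraries, with overlap, and was not called (-0.37, adjusted p = 0.116). Median-of-ratios scaling called Hoxd4 lower as well (-0.70, adjusted p = 0.00634). With that scaling 2 of 5 tested Hoxd genes were thus lower in BALB/c.

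**Figure D3:**
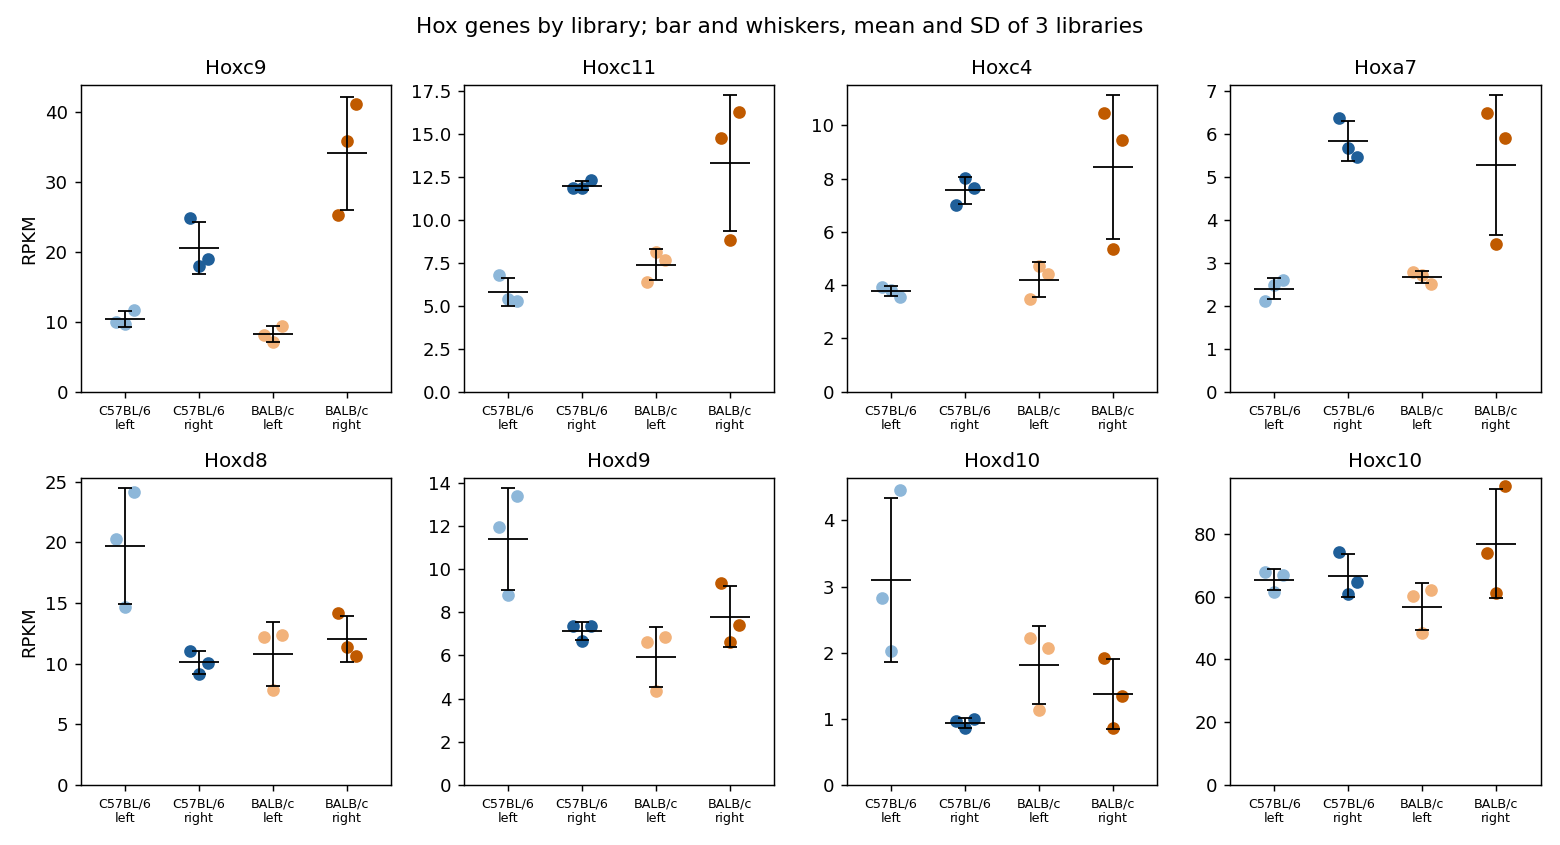
RPKM of 8 Hox genes in each library (points) with the mean and SD of the 3 libraries of a group (bar and whiskers), every axis starting at 0. Hoxc9, Hoxc11, Hoxc4 and Hoxa7 are higher in right legs of both strains, Hoxd8, Hoxd9 and Hoxd10 are lower in right legs of C57BL/6 and overlap between the legs of BALB/c, and Hoxc10 overlaps in both strains. With median-of-ratios scaling Hoxc10 is called lower in C57BL/6, and Hoxc9, Hoxc11, Hoxc4 and Hoxa7 stay above 0 in both strains.

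The difference between the strains was tested by subtracting the C57BL/6 change from that in BALB/c. It was called for 2 of 29 Hox genes, Hoxc9 with 1.03 ± 0.25 (adjusted p = 0.0365) and Hoxd8 with 1.08 ± 0.29 (adjusted p = 0.0488), both in the direction of a higher change in BALB/c. In that direction 1.76% of 14165 genes were called, and 4.33% in the other, where 0 Hox genes were called. Hoxd9 lay just outside, with 1.00 ± 0.27 (adjusted p = 0.0506), and Hoxd10 measured 0.96 ± 0.39 (adjusted p = 0.154). Median-of-ratios scaling called Hoxc9, Hoxd8 and Hoxd9, with 3.72% of all tested genes called in that direction and 3.52% in the other. Both calls were lost without C57BL/6 left library 1 or 3, C57BL/6 right library 2 or 3, or BALB/c left library 2, right library 2 or right library 3. Hoxc9 alone was lost without C57BL/6 left library 2, and Hoxd8 alone without C57BL/6 right library 1, BALB/c left library 3 or BALB/c right library 1. The adjusted p of the 2 genes lies close to the threshold, and neither held when each library was scaled to a common sum.

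As shares of the Hox sum within a library, which do not depend on scaling, Hoxc took 59.7% ± 2.19 in left and 69.1% ± 1.45 in right legs of C57BL/6, and 62.8% ± 0.585 and 72.4% ± 3.18 in BALB/c (SD, n = 3), without overlap of the legs in either strain. Hoxd took 23.4% ± 3.86 in left and 11.7% ± 0.318 in right legs of C57BL/6, without overlap. In BALB/c it took 15.2% ± 2.32 and 11.6% ± 2.43, and the legs overlapped. Hoxa took 15.3% and 17.6% in C57BL/6 and 19.1% and 14.02% in BALB/c, and Hoxb stayed between 1.25% and 3.86% in every library. No test was run on these shares.

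**Figure D4:**
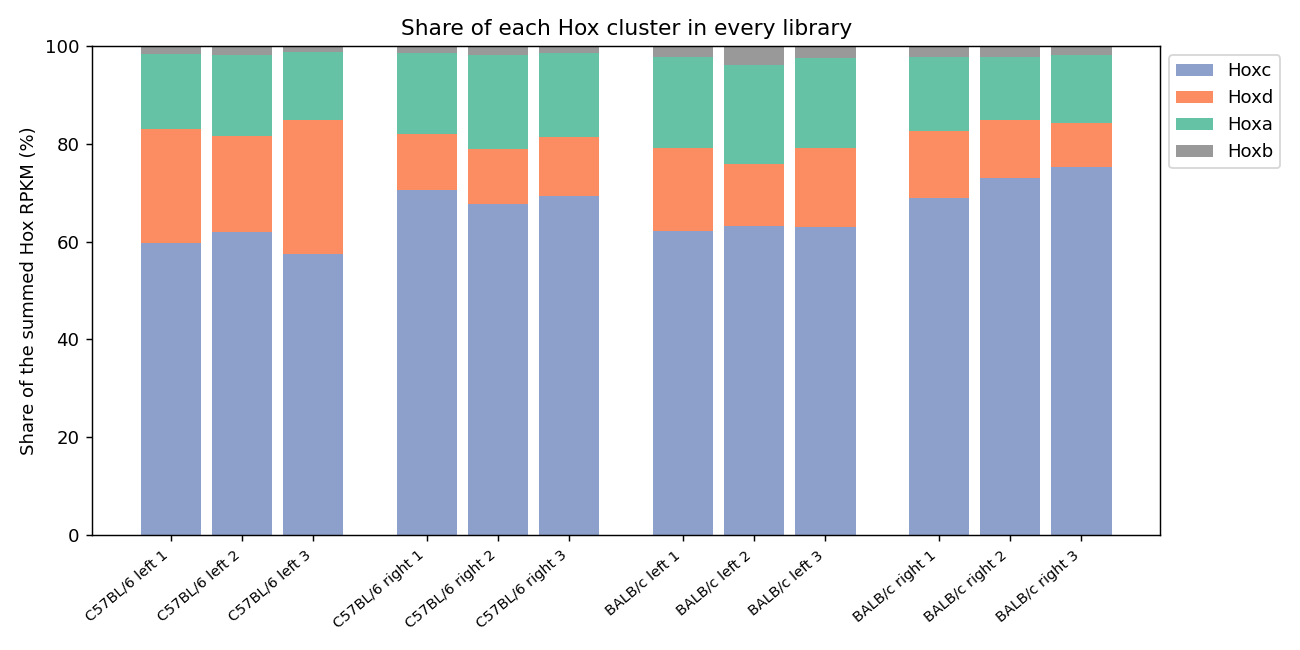
Share of each cluster in the summed RPKM of the 39 Hox genes (vertical axis, percent), 1 bar per library. Hoxc holds 57.5% to 63.3% in the 6 left libraries and 67.6% to 75.2% in the 6 right libraries, and Hoxd holds 19.6% to 27.3% in the left libraries of C57BL/6 and 8.96% to 16.9% in all others.

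By paralogue number, number 9 summed over clusters to 25.2 ± 3.21 RPKM in left and 32.9 ± 3.80 in right legs of C57BL/6, and to 18.1 ± 2.14 and 46.9 ± 7.14 in BALB/c. Number 10 held 75.0 ± 5.05 and 72.8 ± 6.42 RPKM in C57BL/6 and 64.5 ± 8.84 and 83.5 ± 18.1 in BALB/c, and the legs overlapped in both strains. Number 8 held 20.3 ± 4.87 and 10.6 ± 1.04 RPKM in C57BL/6, nearly all of it Hoxd8, and 11.5 ± 2.61 and 13.1 ± 1.85 in BALB/c. Hoxc9 was 0.484 to 0.655 times Hoxd8 in left and 1.89 to 2.25 times in right libraries of C57BL/6, and 0.661 to 0.918 times in left and 1.78 to 3.88 times in right libraries of BALB/c. The order of these genes thus changed between the legs in both strains.

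The promoters of Hoxd8 and Hoxd10, which fell together in C57BL/6, are shown as the 250 bases before the RefSeq start (GRCm38.p6, plus strand). The tables' own positions are in mm9 and were not converted. Capitals mark the motif CCAAT or its reverse complement.
Hoxd8 (chr2:74704365-74704614): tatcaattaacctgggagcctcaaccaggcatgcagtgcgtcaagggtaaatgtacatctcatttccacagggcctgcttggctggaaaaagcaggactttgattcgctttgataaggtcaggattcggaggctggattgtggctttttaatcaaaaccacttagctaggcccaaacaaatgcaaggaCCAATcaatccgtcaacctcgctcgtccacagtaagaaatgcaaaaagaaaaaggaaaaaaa
Hoxd10 (chr2:74691641-74691890): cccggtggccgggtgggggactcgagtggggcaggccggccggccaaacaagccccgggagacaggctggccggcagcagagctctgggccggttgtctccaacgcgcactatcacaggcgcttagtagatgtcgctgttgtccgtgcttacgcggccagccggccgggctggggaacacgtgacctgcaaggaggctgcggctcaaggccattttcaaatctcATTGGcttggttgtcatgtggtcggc
The Hoxd8 window has 44.4% G and C and 6 CpG pairs, and the Hoxd10 window 65.6% and 20. CCAAT was found once in each window, searched on both strands, and in 33.85% of all 32851 windows of that length. TATAAA (in 12.37% of windows), TAATTA, a homeodomain core (4.84%), and TGATTNAT, a joint Hox and Pbx motif (2.82%), were in neither. The table held 24 windows of 22 members, of which 14 had CCAAT, 4 TATAAA, 2 TAATTA and 2 TGATTNAT. Windows of members had a median of 58.6% G and C and 12.5 CpG pairs, against 52.4% and 6 for all windows. The window of Hoxd9, which lies between these genes and fell with them, held no CCAAT and had 65.2% G and C and 13 CpG pairs. It is not printed because it contains untranslated bases.

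Reads were counted on both strands, so transcripts opposite a Hox exon add to its value. By GENCODE M21, exons of 9 members overlap an exon on the opposite strand. The overlap covers 58.5% of the exon bases of Hoxb2 and 50.9% of Hoxb3 (with Hoxb3os), 35.0% of Hoxa11 (with Hoxa11os), 28.8% of Hoxa7 (with Hoxaas3) and 11.7% of Hoxd3 (with Hoxd3os1). Of Hoxd3, 75.0% also lies in a longer transcript of the same strand, so its value is uncertain. The matched transcripts of Hoxc4, Hoxc5, Hoxc6, Hoxc9, Hoxc11, Hoxd8 and Hoxd9 overlap no exon of another gene (0.0%). Of Hoxc10, 8.7% of the exon bases lie in an exon annotated to Hoxc5 on the same strand. The counted row of Hoxaas3 stayed at or under 0.263 RPKM in every library. That row spans 52151123 to 52163596 of chromosome 6 and does not reach Hoxa7, which starts at 52165623. It therefore gives no measure of antisense reads at Hoxa7. The matched transcript can differ in length from the listed one, as for Hoxd8 with 557 matched and 1672 listed bases. Hoxc9 had 2374 matched and 1714 listed bases, and Hoxc11 2021 and 912.

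Other transcripts of the clusters were read beside the genes. The tables list 22 further rows inside the 4 clusters, of which 11 had at most 3 reads in every library. Mira, a noncoding transcript beside Hoxa7 on the same strand, rose from 4.17, 5.49 and 5.86 to 14.5, 12.3 and 11.5 RPKM in C57BL/6 and from 6.40, 4.84 and 4.93 to 12.3, 12.2 and 12.9 in BALB/c. Its change was 1.23 (adjusted p = 0.00015) and 1.15 (adjusted p = 0.000462), and it remained called after median-of-ratios scaling in both strains (0.55 and 0.65). Hotairm1, a noncoding transcript of the Hoxa cluster, was also called higher in both strains. Its mean went from 0.564 to 2.02 RPKM in C57BL/6 and from 0.801 to 2.38 in BALB/c (adjusted p = 0.0299 and 0.00485). Few reads lay behind these means. C57BL/6 left libraries held 2, 1 and 5 reads and right libraries 10, 15 and 4, so the legs overlapped. BALB/c left libraries held 3, 6 and 2 reads and right libraries 13, 10 and 11, without overlap. With median-of-ratios scaling Hotairm1 lost its call in C57BL/6 (0.75, adjusted p = 0.149) and kept it in BALB/c (0.83, adjusted p = 0.0237).

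Gm36878, a noncoding row inside the span of Hoxc9 on the opposite strand, followed Hoxc9 in BALB/c and not in C57BL/6. It measured 9.38, 9.11 and 10.2 RPKM in left and 12.1, 9.19 and 7.49 in right libraries of C57BL/6, and 6.63, 6.28 and 8.42 in left and 15.6, 18.8 and 22.9 in right libraries of BALB/c. Its change was -0.02 (adjusted p = 0.918) and 1.36 (adjusted p = 0.000572), and the strains differed by 1.38 (adjusted p = 0.0122). With median-of-ratios scaling it was called lower in C57BL/6 (-0.70, adjusted p = 0.00621). Since reads were counted on both strands, unspliced Hoxc9 RNA would add to the Gm36878 row, and its part was not tested. Hotair, an antisense transcript between Hoxc11 and Hoxc12 that is known to bind Polycomb, was called higher in C57BL/6 (0.509 to 1.36 RPKM, adjusted p = 0.00945), and in BALB/c it had 0.752 and 1.17 RPKM (adjusted p = 0.0962). Median-of-ratios scaling left Hotair without a call in either strain (0.45 and 0.08, adjusted p = 0.149 and 0.735).

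In Hoxd, the antisense row Hoxd3os1, which overlaps the start of the Hoxd3 span, fell with the coding genes in C57BL/6. It measured 3.87, 2.23 and 4.30 RPKM in left and 1.13, 1.20 and 0.998 in right libraries, a change of -1.26 (adjusted p = 0.00101), and the groups did not overlap. The BALB/c values were 1.39, 0.488 and 0.884 RPKM in left and 0.987, 1.30 and 0.197 in right libraries, a change of -0.15 (adjusted p = 0.757). The difference between strains was not called (1.11, adjusted p = 0.184). Hoxa11os, opposite Hoxa11, had the pattern of Hoxa11: it was lowest in C57BL/6 left library 3 (1.27 RPKM) and BALB/c left library 2 (1.05 RPKM) of the left legs, and it was not called in either strain. Since the 2 share exon bases, part of their reads may be the same.

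**Figure D5:**
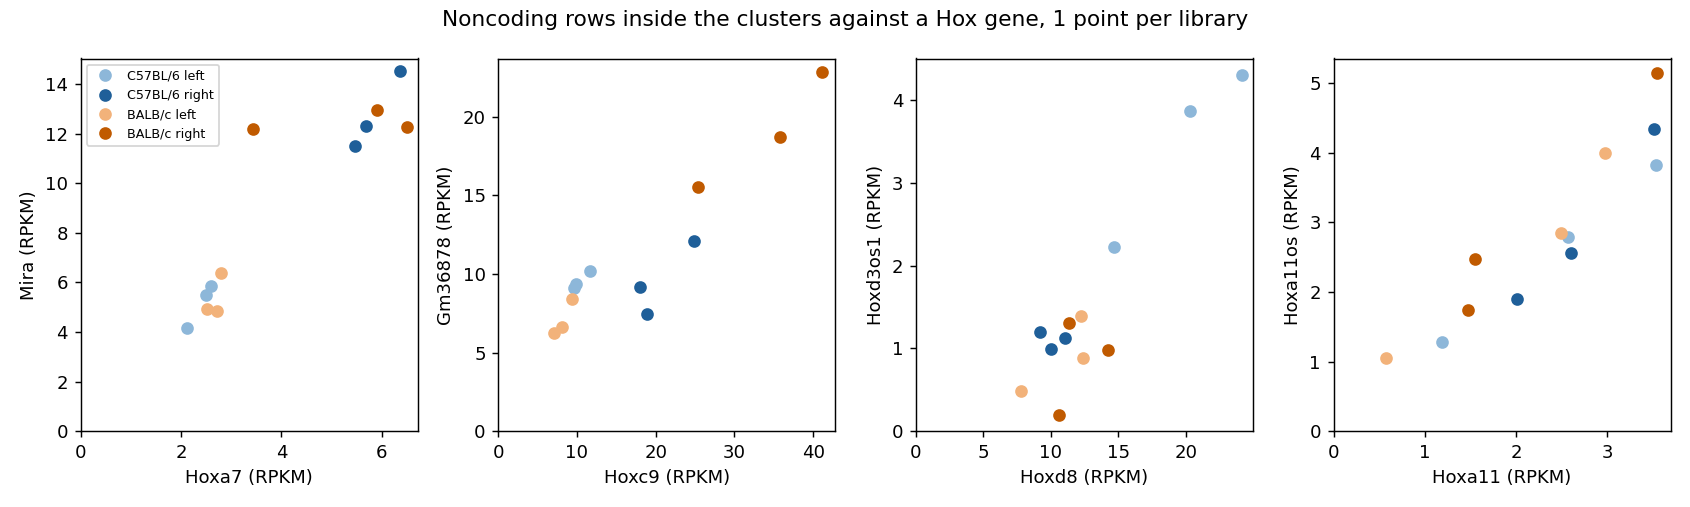
RPKM of 4 noncoding rows inside the clusters (vertical axes) against a Hox gene (horizontal axes), 1 point per library in the colours of the 4 groups. Mira separates the legs as Hoxa7 does, Gm36878 is at 15.6 to 22.9 RPKM only in the right legs of BALB/c, Hoxd3os1 is at 2.23 to 4.30 RPKM only in the left legs of C57BL/6, and Hoxa11os and Hoxa11 spread within each group.

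The genes that flank the clusters did not share 1 direction. Beside Hoxd, Lnpk, an endoplasmic reticulum protein gene, fell in both strains (5.11 to 3.83 RPKM, adjusted p = 0.00337, and 4.89 to 3.18 RPKM, adjusted p = 0.0196). On the other side Mtx2, a mitochondrial import gene, rose in C57BL/6 (11.2 to 27.2 RPKM, adjusted p = 1.95e-05) and had 15.9 and 22.5 RPKM in BALB/c (adjusted p = 0.0546). Calcoco1, an autophagy receptor gene beside Hoxc, rose in both strains (35.7 to 68.9 RPKM, adjusted p = 2.6e-05, and 37.6 to 72.1 RPKM, adjusted p = 0.00456). After median-of-ratios scaling Lnpk stayed called in both strains (-1.02 and -1.01), Mtx2 in C57BL/6 (0.54) and Calcoco1 in C57BL/6 (0.22, adjusted p = 0.0436), while Calcoco1 lost its call in BALB/c (0.39, adjusted p = 0.0769) and Mtx2 stood at -0.03 there. Evx2 had 0 RPKM in every library.

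The clusters also hold microRNA genes of the miR-10 and miR-196 families, which are known to repress Hox genes. Their mature sequences are printed from RefSeq (GRCm38.p6) with the seed, bases 2 to 8, in capitals, because the shared seeds show which of them belong together.
miR-10a-5p: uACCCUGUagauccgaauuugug
miR-10b-5p: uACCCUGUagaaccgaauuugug
miR-196a-5p: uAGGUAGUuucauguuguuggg
miR-196b-5p: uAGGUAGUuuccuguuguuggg
miR-10a-5p and miR-10b-5p share 1 seed, and miR-196a-5p and miR-196b-5p share another. The 6 microRNA rows of the tables had at most 3 reads in any library. These libraries were made from poly(A) RNA, and the rows give no usable level of the mature microRNAs.

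The counts of the gene lists below are read beside the shares of all tested genes. Of these, 63.6% were called higher and 8.56% lower in C57BL/6, and 42.5% and 7.67% in BALB/c. After median-of-ratios scaling the shares were 28.2% higher and 26.6% lower in C57BL/6, and 21.8% and 19.2% in BALB/c. TALE cofactors were all 9 above the filter. In C57BL/6, 7 rose and 1 fell, and in BALB/c 3 rose and 1 fell (4 and 1, and 2 and 2, after median-of-ratios scaling). The gene that fell in both strains was Pknox2, from 14.6 ± 1.35 to 6.00 ± 0.724 RPKM in C57BL/6 and from 16.1 ± 2.37 to 5.96 ± 1.47 in BALB/c (adjusted p = 5e-05 and 0.000865). Its paralogue Pknox1 rose in both, from 1.92 to 4.77 and from 2.21 to 5.05 RPKM (adjusted p = 7.6e-05 and 0.00182). Meis1 rose too, from 0.635 to 1.79 and from 0.596 to 1.58 RPKM (adjusted p = 0.00015 and 0.00552). Meis2 was low, at 0.0767 to 0.190 RPKM by group mean, and was not called.

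Of the 18 limb patterning genes, 12 were tested in C57BL/6, where 4 rose and 1 fell, and 14 in BALB/c, where 2 rose and 1 fell (3 and 2, and 1 and 4, after median-of-ratios scaling). Tbx4 rose in both strains, from 0.784 ± 0.206 to 2.62 ± 0.313 and from 1.21 ± 0.394 to 2.45 ± 0.922 RPKM (adjusted p = 0.000121 and 0.0371), and lost its call in BALB/c after median-of-ratios scaling. Tbx15, a factor of fast glycolytic fibres, fell in both, from 49.5 to 38.5 and from 44.5 to 27.2 RPKM (adjusted p = 0.0089 and 0.00982). Pitx1, which acts upstream of Tbx4 in the hindlimb, was at or under 0.065 RPKM in every library of C57BL/6 and at 0.067 to 0.447 in those of BALB/c.

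Of 24 Polycomb genes, 19 rose and 1 fell in C57BL/6 and 8 rose and 1 fell in BALB/c (9 and 5, and 6 and 1, after median-of-ratios scaling). The median change was 0.53 and 0.34, against 0.52 and 0.38 for all tested genes. Pcgf2, a subunit of Polycomb complex 1, rose in both strains, from 0.816 ± 0.139 to 6.97 ± 0.892 RPKM in C57BL/6 and from 2.81 ± 0.462 to 17.8 ± 5.59 in BALB/c (adjusted p = 4e-06 and 0.000175). Aebp2, an accessory subunit of complex 2, rose from 2.90 to 14.8 and from 2.55 to 23.1 RPKM (adjusted p = 1.3e-05 and 3.5e-05). Of 10 Trithorax and H3K27 demethylase genes, 7 rose and 0 fell in C57BL/6 and 4 rose and 0 fell in BALB/c (2 and 3, and 2 and 1, after median-of-ratios scaling), with a median change of 0.45 and 0.37. None of the 4 lists had a member called for the difference between strains, and median-of-ratios scaling called 1, Aebp2.

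Markers of the cells in the muscle were read against the same shares of all tested genes. These were 63.6% higher and 8.56% lower in C57BL/6, and 42.5% and 7.67% in BALB/c. After median-of-ratios scaling they were 28.2% and 26.6% in C57BL/6, and 21.8% and 19.2% in BALB/c. Muscle fibre markers fell for 8 of 8 genes in C57BL/6 and 3 of 8 in BALB/c with either scaling, and their sum was 162000 to 176000 RPKM in left and 75300 to 80800 in right libraries of C57BL/6, and 112000 to 155000 and 60200 to 85100 in BALB/c. Of 10 fibro-adipogenic and fibroblast markers 10 rose in C57BL/6 (summed 145 to 265 and 388 to 650 RPKM), and in BALB/c 6 rose and 1 fell (782 to 1180 and 1150 to 1330). With median-of-ratios scaling 5 rose in C57BL/6, and in BALB/c 0 rose and 2 fell. Macrophage markers rose for 6 of 6 genes in both strains (4.42 to 6.07 and 51.6 to 106 RPKM in C57BL/6, 25.4 to 46.4 and 83.8 to 150 in BALB/c), and for 6 and 4 with median-of-ratios scaling. Tendon markers rose for 4 of 6 genes in C57BL/6 (14.1 to 20.2 and 104 to 261 RPKM) and for 1 of 6 in BALB/c, where 1 fell (145 to 279 and 222 to 261). With median-of-ratios scaling 3 rose in C57BL/6, and in BALB/c 1 rose and 4 fell. Satellite cell markers rose for 4 of 7 and 3 of 7, close to the shares of all genes, and for 2 and 2 with median-of-ratios scaling.

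Other markers fell or varied. Endothelial markers fell for 3 of 6 genes in C57BL/6 and 2 of 6 in BALB/c, and of 6 smooth muscle and pericyte markers 0 and 1 fell. With median-of-ratios scaling the falls were 6 and 5 of the endothelial and 5 and 3 of the smooth muscle and pericyte markers. Schwann cell markers ranged from 1.76 to 119 RPKM and adipocyte markers from 1.02 to 13.7 RPKM within the left legs of C57BL/6, and adipocyte markers from 24.2 to 258 RPKM within those of BALB/c, highest in left library 2. The part of these markers in the Hox changes was not tested. In whole muscle, fewer cells of a type and less RNA per cell cannot be told apart.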

How the data were processed

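Poly(A) RNA of gastrocnemius muscle was sequenced in 12 libraries, and group labels came from strain and leg in the sample titles. The authors deposited RPKM values in 1 table per strain. Per the file headers, HOMER counted exon reads on both strands with its mm9 annotation and kept 1 transcript per gene. HISAT2, HOMER and DESeq2 appear in the submitters' processing notes, with GRCm38 and mm10 as builds. Gene positions follow the mm9 coordinates of the files. BALB/c library 3 carries another number in the column name and was matched through the description.

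The 39 Hox genes and all lists were chosen with earlier results of these data known. Whole reads came out of the RPKM values, within 0.1 read, for 99.96% to 100% of judged values of a library, and the detection limit was set at 3 reads. Right and left legs were compared in each table by limma (version 3.58.1, R version 4.3.3) using lmFit and then eBayes with trend, on log2(RPKM + 0.5), two-sided, Benjamini-Hochberg adjusted over all tested genes and called under 0.05. The strain difference was a contrast in 1 fit of 12 libraries. Members in full were those called in any comparison and the 10 highest by mean. Alternatives were other pseudocounts, filters and scalings, a replicate block, no trend, limma-voom on the recovered reads, and leaving out each library. limma was tested on simulated reads: of 50 genes raised 2-fold it recovered 86% among 13562 C57BL/6 genes and 88% among 14253 BALB/c genes, of 50 lowered to a ratio of 0.5 it recovered 64% and 72%, and of 50 raised 1.5-fold 10% and 18%. The simulated reads had the same fixed spread in both strains and no shift of most genes. Only genes of at least 1 RPKM in left legs were changed in them. The rates therefore do not carry over to lower Hox genes or to a wider spread. Sequences came from GENCODE M21 and RefSeq GRCm38.p6. The detection limit covers counting error only, while values after ± are SDs or limma standard errors and reflect the spread among libraries. Some items are not reported here.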

Additional observations from a re-analysis of the deposited data

Results flagged for a closer look

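The leg change of Hoxc9 differed between the strains by 1.03 ± 0.25 on the log2 scale (limma, adjusted p = 0.0365). Right legs were higher in both strains, with 3 of 3 right libraries above every left library, and the rise was larger in BALB/c. Over 21 alternatives the difference was 0.82 to 1.23, with an adjusted p of 0.0155 to 0.0946, and 12 of them called it.

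The leg change of Hoxd8 differed by 1.08 ± 0.29 (adjusted p = 0.0488). In C57BL/6 all 3 right libraries lay below the left, and in BALB/c the legs overlapped. Over 21 alternatives the difference was 0.87 to 1.27, with an adjusted p of 0.0345 to 0.117, and 8 of them called it. Without BALB/c left library 2, which was the lowest of its group at 7.78 RPKM, the difference was 0.87 (adjusted p = 0.0896).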

How the results depend on the processing

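The 10 Hox genes left untested fell under the filter of 0.1 RPKM, 4 of them with 0 reads in all 12 libraries. Median-of-ratios scaling left 3 Hox genes higher and 11 lower in C57BL/6 and 1 higher and 7 lower in BALB/c. It turned 10 of 29 changes below 0 in each strain, among them Hoxa3 to -0.20, Hoxa9 to -0.10, Hoxc6 to -0.20 and Hoxc10 to -0.69 in C57BL/6, and Hoxc10 to -0.11, Hoxd8 to -0.33 and Hoxd9 to -0.11 in BALB/c. Scaling to a common sum left 1 higher in BALB/c and 0 called for the strain difference, turned Hoxd8 in BALB/c to -0.0372, and moved the BALB/c left sums of Hoxa to 26.9 and of Hoxc to 88.5 RPKM. With no filter, 1 was lower in BALB/c and 1 called for the difference, where eBayes without trend also called 1. The causes were not tested.

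Leaving out a library gave 7 to 9 higher and 3 to 6 lower in C57BL/6, 2 to 8 higher and 0 lower in BALB/c, and 0 to 3 for the difference. Hoxc10 in C57BL/6 then ranged from -0.0573 (without right library 1) to 0.0846, and Hoxd8 in BALB/c from -0.0384 (without left library 2) to 0.28. The BALB/c count was 3 higher without left library 1 and 2 without left library 3 or right library 1 or 3. The difference had 0 calls without C57BL/6 left library 1 or 3 or right library 2 or 3, or BALB/c left library 2 or right library 3. Hoxa7, Hoxc4, Hoxc11, Hoxd8, Hoxd9 and Hoxd10 in C57BL/6 and Hoxc9 in BALB/c were called under all 15 alternatives run.

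The labels do not say that a number pairs the legs. Same-numbered legs correlated at 0.117, 0.06 and 0.034 in C57BL/6 and 0.03, 0.054 and 0.202 in BALB/c. Legs with different numbers correlated at -0.104 to 0.059 in C57BL/6 and at -0.163 to 0.089 in BALB/c. Not every library correlated best with its own number, and these values do not settle whether the legs are paired. With the replicate block the counts were 9 higher and 4 lower in C57BL/6, 6 and 0 in BALB/c (with Hoxc10 in place of Hoxb7), and 3 for the difference (Hoxd9 added).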
